A study of Homo sapiens with 2 samples.

Results

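The 3 human Grainyhead-like genes, GRHL1, GRHL2 and GRHL3, were examined for chromatin occupancy by GRHL2 and MLL3 in KYSE510 cells, a long-used human line from a squamous carcinoma of the esophagus. Regions were members when their summit lay in one of these genes or within 50 kb on either side, in hg19. The window of GRHL1 ran from 10042 to 10192 kb on chromosome 2, that of GRHL2 from 102455 to 102732 kb on chromosome 8, and that of GRHL3 from 24596 to 24741 kb on chromosome 1. All 3 genes are transcribed from left to right. These windows held 40 of the 152864 GRHL2 regions and 6 of the 12150 MLL3 regions on the assembled chromosomes.

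Chromatin of formalin-fixed cells, with no other treatment labelled, had been precipitated with a GRHL2 antibody in 1 library and with an MLL3 antibody in the other, and each deposited list had been called against input. The cells carried no engineered allele by the labels, and the libraries come from a single line. No replicate exists for either antibody, so values carry no error between cultures and no difference between antibodies or genes could be tested. Depth is unknown, because neither list holds read counts. Transcript levels were not measured in these libraries, and cells with GRHL2 or MLL3 silenced were not analysed here.

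Grainyhead-like proteins are transcription factors of covering epithelia, named after the Drosophila gene grainy head, and they bind DNA as dimers. GRHL2 maintains epithelial adhesion through genes such as CDH1 and stands in mutual repression with ZEB1, a repressor of the epithelial state. GRHL1 is known for desmosomal gene control in epidermis and GRHL3 for skin barrier formation and wound closure. MLL3 (gene KMT2C) methylates histones, mainly at enhancers. Whether a Grainyhead-like factor occupies the genes of its own family is the first thing asked of an autoregulatory or cross-regulatory circuit. Occupancy alone does not show regulation. Whether the GRHL2 antibody also recognises GRHL1 or GRHL3 was not checked here, so GRHL2 occupancy below means regions listed with this antibody.

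A GRHL2 region was listed at the start of all 3 family genes, with very different enrichment. Without an hg19 annotation the share of all gene starts with such a region could not be counted. Whether a listed region at the start is particular to this family was therefore not tested. Fold enrichment, the authors' ratio of ChIP signal at the summit to local background, was 76.1 at the start of GRHL2, 19.7 at GRHL1 and 4.38 at GRHL3. The region at the GRHL2 start stood in the top 0.256% of its list by fold, that at GRHL1 in the top 1.94% and that at GRHL3 in the top 10.8%. Gene starts are known here to the nearest 1 kb, and each of the 3 summits lay less than 1 kb from its rounded position. The MLL3 list had a region at the start of GRHL2 (fold 8.61) and at the start of GRHL3 (fold 8.56), and no listed region at the start of GRHL1.

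RefSeq promoter sequence was at hand for 2 of these genes, GRHL1 and GRHL3, and is shown because a GRHL2 ChIP region lies at the start of each. The sequences below are the 250 bases before the annotated start, 5′ to 3′ on the plus strand, in GRCh38.p14 (chr2:9951443-9951692 for GRHL1 and chr1:24319107-24319356 for the more upstream of the starts listed for GRHL3). These positions are not in the build of the regions and were not overlaid on them. Capitals mark CACCTG, the E-box core that repressors such as ZEB1 and SNAI1 recognise.
GRHL1: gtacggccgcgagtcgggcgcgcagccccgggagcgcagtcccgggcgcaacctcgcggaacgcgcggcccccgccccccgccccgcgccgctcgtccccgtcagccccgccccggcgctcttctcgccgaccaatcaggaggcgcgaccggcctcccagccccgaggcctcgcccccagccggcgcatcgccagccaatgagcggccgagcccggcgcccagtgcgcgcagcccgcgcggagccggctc
GRHL3: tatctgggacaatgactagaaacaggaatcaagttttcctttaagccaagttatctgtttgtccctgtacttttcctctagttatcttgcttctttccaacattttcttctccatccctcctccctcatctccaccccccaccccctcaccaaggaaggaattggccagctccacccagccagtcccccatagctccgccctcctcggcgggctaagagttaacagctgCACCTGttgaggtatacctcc

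The promoters differed in base composition. G and C made up 81.6% of the GRHL1 promoter and 50.8% of the GRHL3 promoter, and 98.0% and 33.7% of the 35116 promoters in the RefSeq table had a lower share (median 58.0%). The other start listed for GRHL3 had 52.0%. Exact matches were sought on both strands to the Grainyhead-like consensus AACCGGTT and to its looser form AACNNGTT, which contains the consensus, and to CACCTG. Neither AACCGGTT nor AACNNGTT occurred in any of the 3 promoter sequences of GRHL1 and GRHL3. Of all promoters of this length in the table, 0.117% hold AACCGGTT and 3.0% hold AACNNGTT. CACCTG occurred once, on the plus strand of the GRHL3 promoter, beginning 21 bases before the start, and it is found in 17.5% of all promoters. A match is a description of the letters in this window and not of a bound site.

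**Figure D1:**
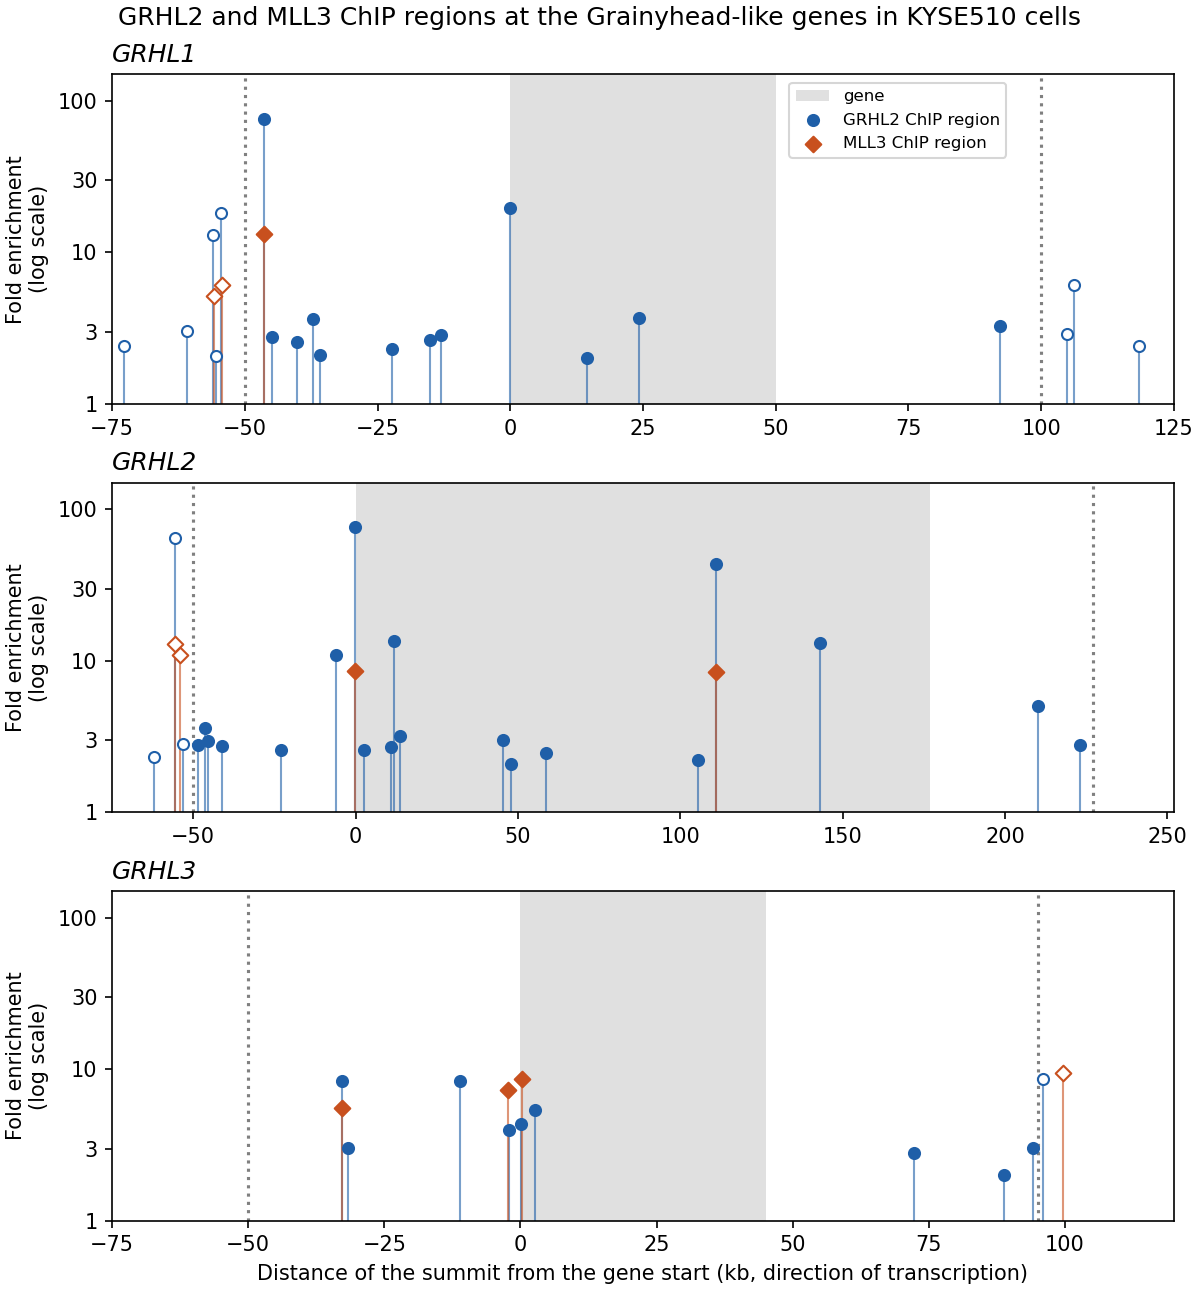
Each stem is a listed region at GRHL1, GRHL2 or GRHL3, placed by the distance of its summit from the gene start in kb (horizontal axis) with its fold enrichment (vertical axis, log scale); circles are GRHL2 ChIP regions, diamonds MLL3 ChIP regions, grey marks the gene, dotted lines the bounds of the windows, and open symbols lie outside them. The tallest GRHL2 stems inside the windows stand at the start of GRHL2 (fold 76.1), 46.3 kb before GRHL1 (fold 75.6) and 110.9 kb into GRHL2 (fold 43.7), whereas at GRHL3 no stem in the window exceeds 8.56.

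At its own gene, GRHL2 was listed at 19 regions over 277 kb. The region over the gene start, at chr8:102503558-102507125, was 3568 bp wide, among the widest 0.205% of the list, with a −log10 q of 526. Inside it, at chr8:102504696-102505055, lay an MLL3 region of 360 bp with a fold of 8.61 and a −log10 q of 19.98, and the summits were 30 bp apart. The strongest GRHL2 region within the gene body lay 110.9 kb from the start, at chr8:102615175-102616425, with a fold of 43.7 and a −log10 q of 183. It enclosed the other MLL3 region of the window, at chr8:102615825-102616222, which had a fold of 8.404, with 77 bp between the summits. Both MLL3 regions thus sat on the GRHL2 regions of highest fold in this window.

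Another 5 GRHL2 regions at GRHL2 passed a −log10 q of 2 and had no MLL3 region on them. Of the 7 GRHL2 regions of this window that passed, 2 thus carried MLL3 (28.6%, exact interval 3.67 to 71.0%). In the whole GRHL2 list 24.5% of such regions did, a share within the interval, so a significant region without MLL3 is common. A region 6.0 kb before the start had a fold of 10.9, one 11.9 kb into the gene had 13.6, and one 143.1 kb into the gene had 13.1. The last of these, at chr8:102647538-102648695, had a −log10 q of 40.7. The weaker members of the 5 were 46.4 kb before the start, with a fold of 3.60, and 33.2 kb past the gene end, with a fold of 5.07. NCALD, the next coding gene downstream in the reference order, lies on that side, and assignment of a flank region to either gene was not possible without an hg19 annotation.

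In the window of GRHL1 the strongest GRHL2 region lay far upstream and not at the gene start. This region, at chr2:10044925-10046539, lay 46.3 kb before the start, was 1615 bp wide, and had a fold of 75.6 and a −log10 q of 367, in the top 0.26% of the list and close to the value at the GRHL2 start. It enclosed the single MLL3 region of the window, at chr2:10045533-10045910, whose fold of 13.2 was the highest of the 6 MLL3 regions of the family (top 10.6% of its list). The summits were 23 bp apart, the closest of the 6 pairs. TAF1B, a subunit gene of the RNA polymerase I machinery, is the next coding gene on this side. Without an hg19 annotation the region could not be assigned to GRHL1 or TAF1B, nor placed inside or outside TAF1B.

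The GRHL2 region at the start of GRHL1, at chr2:10091440-10093061, was 1622 bp wide with a −log10 q of 61.6, and the nearest MLL3 summit was 46.2 kb away. In the whole GRHL2 list, 38.3% of regions with a −log10 q from 20 to 100 overlapped an MLL3 region, so a region of this strength without one is common. Absence from the MLL3 list is not absence of MLL3, because the list ends at a −log10 q of 2.07 and the depth is unknown. Within the gene body, GRHL2 was listed 24.3 kb from the start with a fold of 3.70 and 14.5 kb from it with a fold of 2.03. After that no summit followed for 68.0 kb, until a region 92.3 kb from the start with a fold of 3.27. KLF11, a Krüppel-like factor gene, is the next coding gene on that side.

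The window of GRHL3 held moderate GRHL2 regions and 3 MLL3 regions in 145 kb, against 2 in 277 kb at GRHL2 and 1 in 150 kb at GRHL1. Per Mb this was 20.7 at GRHL3, 7.22 at GRHL2 and 6.67 at GRHL1. The MLL3 list had 6.54 per Mb on chromosome 1, 3.22 on chromosome 8 and 3.49 on chromosome 2. The order of the counts depends on the flank: GRHL3 and GRHL2 had 2 each with a flank of 20 kb and 4 each with a flank of 60 or 100 kb. At the gene start the GRHL2 region chr1:24645698-24646363 had a fold of 4.38 and a −log10 q of 5.17, and the MLL3 region inside it, chr1:24645998-24646338, had a fold of 8.56 and a −log10 q of 18.3, with summits 35 bp apart. At 2.3 kb before the start a second MLL3 region, chr1:24643541-24643807, had a fold of 7.31 inside a GRHL2 region of fold 4.004. At 32.8 kb before the start the third, chr1:24613121-24613316, had a fold of 5.55 inside a GRHL2 region of fold 8.35. The GRHL2 region of highest fold in this window (8.42, 11.1 kb before the start) had no MLL3 region, nor did the one 2.6 kb into the gene (fold 5.36). IFNLR1 is the next coding gene upstream in the reference order. Without an hg19 annotation the regions before the start could not be assigned to GRHL3 or IFNLR1. Distances are from the rounded gene bound, and the other start listed for GRHL3 was not placed in hg19.

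Beyond 2.6 kb into GRHL3 no GRHL2 summit was listed for 69.6 kb, which covers the rest of the gene. The 3 regions of the downstream flank, where STPG1 is the neighbouring coding gene, had folds of 2.80, 2.00 and 3.03, and none reached a −log10 q of 2. Within the window of GRHL3, significant regions (−log10 q of 2 or more) were listed from 32.7 kb before to 2.6 kb after the start, and the next one lay 51.0 kb past the gene end, just outside the bound, with a fold of 8.62.

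**Figure D2:**
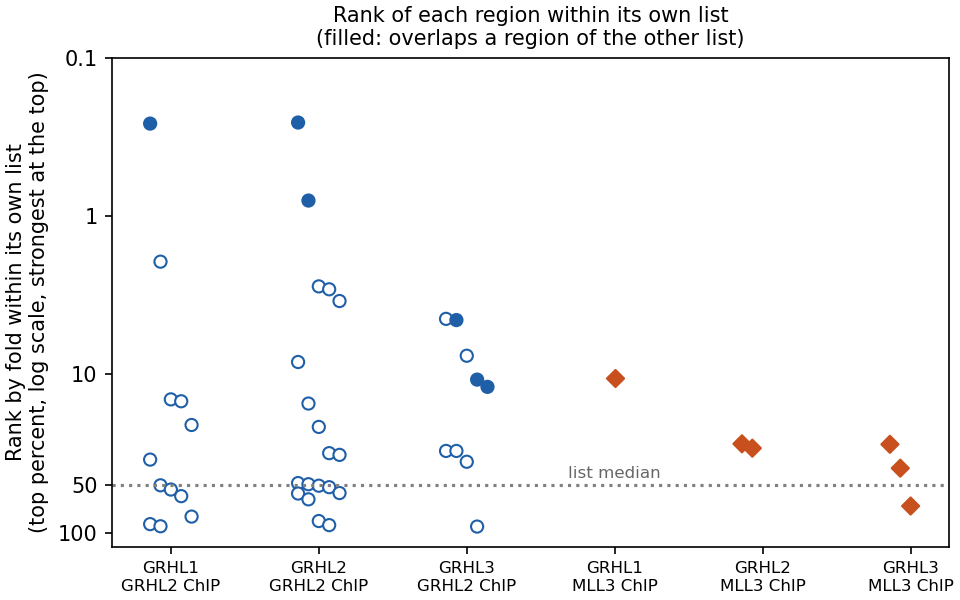
Each symbol is a region in a window of the family, placed by its rank by fold within its own list (vertical axis, top percent on a log scale, strongest at the top) for each gene and antibody (horizontal axis); filled symbols overlap a region of the other list and the dotted line is the list median. The filled GRHL2 symbols are the first at GRHL1 and the first and second at GRHL2, but at GRHL3 they rank between the top 4.54% and the top 12.0%, and the 6 MLL3 symbols lie between the top 10.6% and the top 68.0%.

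Set side by side, the 3 MLL3 regions on the strongest GRHL2 regions of the family (folds 43.7 to 76.1) had folds of 8.404, 8.61 and 13.2. The 3 at GRHL3, on GRHL2 regions of fold 4.004 to 8.35, had folds of 5.55, 7.31 and 8.56, and these ranges overlap. The starts of GRHL2 and GRHL3 had nearly the same MLL3 fold (8.61 and 8.56) over GRHL2 folds of 76.1 and 4.38. Over the whole lists, MLL3 regions on GRHL2 regions with a −log10 q of 100 or more had a median fold of 9.48 (quartiles 6.41 and 15.1, 1859 pairs), and those on GRHL2 regions with a −log10 q from 2 to 20 had a median of 6.31 (quartiles 5.20 and 8.42, 4875 pairs). The MLL3 region at the GRHL3 start was above the upper quartile of its class, and that at the GRHL2 start was below the median of its class. The 3 GRHL2 regions of the family with a −log10 q of 100 or more all carried MLL3, where 76.2% of such regions in the list did. Of the 5 GRHL2 regions at GRHL3 with a −log10 q of at least 2, all of them below 20, 3 carried MLL3 (exact 95% interval 14.7 to 94.7%), where 17.5% of the regions from 2 to 20 in the list did, a share within the interval. In the same class 0 of 3 regions at GRHL1 and 0 of 2 at GRHL2 carried MLL3.

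**Figure D3:**
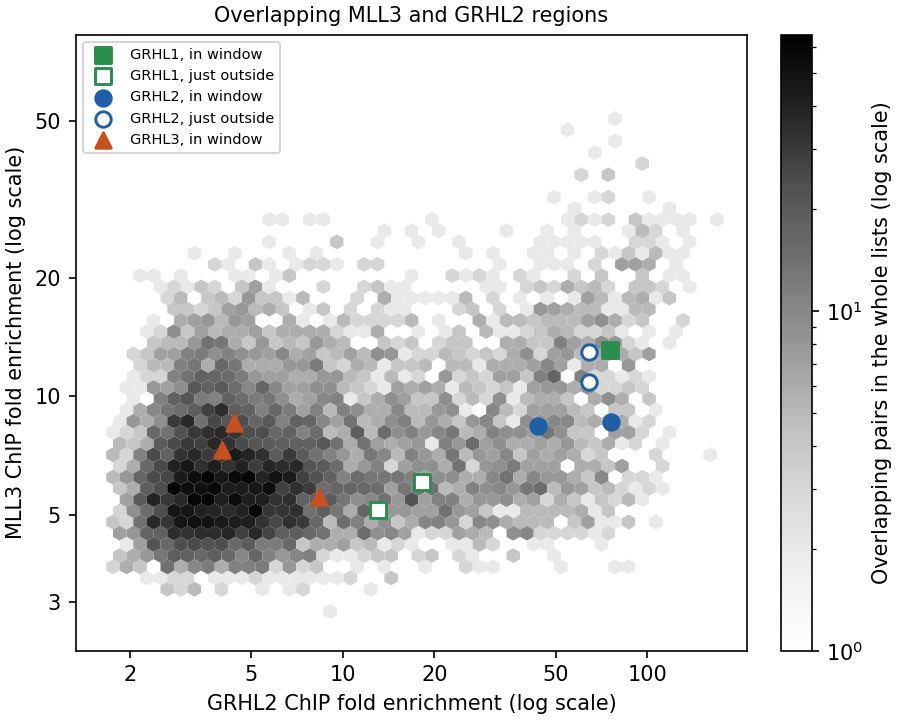
Overlapping pairs are placed by the fold enrichment of the GRHL2 region (horizontal axis, log scale) and of the MLL3 region (vertical axis, log scale); grey hexagons count all 10455 pairs of the whole lists, and coloured symbols are the pairs at GRHL1, GRHL2 and GRHL3, filled inside the windows and open just outside them. The GRHL2 and GRHL3 starts stand at about the same height (8.61 and 8.56) but far apart along the horizontal axis (76.1 and 4.38).

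Inside the windows MLL3 was listed only on GRHL2 regions, as was most of the whole MLL3 list. An MLL3 region 54.7 kb past the end of GRHL3, just outside the window, overlapped no GRHL2 region. All 6 MLL3 regions overlapped a GRHL2 region (exact Clopper-Pearson 95% interval 54.1 to 100%), and 85.0% of the whole MLL3 list did. These GRHL2 regions all had a −log10 q of at least 2 (lowest 3.02), and 68.7% of the whole MLL3 list met such a region. Each of the 6 lay wholly inside its GRHL2 region, as in 70.1% of all pairs, and 4 of the 6 summit distances were within 100 bp, as in 48.5% of all pairs. The distances ran from 23 to 119 bp with a median of 56 bp, against 106 bp over all pairs. The interval around 6 of 6 includes the 85.0%, 68.7% and 70.1% of the whole lists.

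Seen from GRHL2, the windows held more of the significant regions than the list as a whole. Of the 40 GRHL2 regions, 17 had a −log10 q of at least 2 (42.5%, interval 27.0 to 59.1%), against 19.7% of the whole list. Their number per Mb was 33.3 at GRHL1, 25.3 at GRHL2 and 34.5 at GRHL3, against 10.1 over the whole list. The same density was 8.27 on chromosome 2, 7.93 on chromosome 8 and 15.2 on chromosome 1, which carry GRHL1, GRHL2 and GRHL3 in this order. MLL3 lay on 6 of the 40 (15.0%, interval 5.71 to 29.8%), where 6.15% of the whole list was shared. Among the 17 significant regions this was 6 (35.3%, interval 14.2 to 61.7%), where 24.5% of such regions in the list were shared, a value within the interval. Intervals cover the counting of regions only. They treat neighbouring regions as independent and are not a test of a difference from the list. Windows around genes were set against a list that also covers intergenic stretches, and the part that this plays was not tested.

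The remaining 23 GRHL2 regions were weak. Their folds ran from 2.00 to 3.20, and 0 of the 23 overlapped an MLL3 region. Such overlap was rare among weak regions throughout the list. Of all 152864 GRHL2 regions 9404 overlapped one, and 7355 of these were among the 30080 significant regions. Of all 40, 9 were 265 bp wide, the minimum that occurs, as were 26.9% of the whole list. The GRHL2 list goes down to an unadjusted −log10 p of 1.30, and the median fold was 2.81 at GRHL1, 2.94 at GRHL2 and 4.004 at GRHL3, against 2.77 over the whole list.

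Strong regions stood just outside the windows at GRHL1 and GRHL2. At GRHL2, 55.5 kb before the start, a GRHL2 region of 2942 bp at chr8:102448481-102451422 had a fold of 64.5 and a −log10 q of 403 and held 2 MLL3 regions with folds of 13.0 and 10.9. Both exceeded the MLL3 folds at the gene start and in the gene body. The first GRHL2 region inside this bound, 48.6 kb before the start, had a fold of 2.78. At GRHL1, regions 54.4 and 56.0 kb before the start had GRHL2 folds of 18.2 and 13.1 and MLL3 folds of 6.07 and 5.13, and the first region inside was the one of fold 75.6. Past the other bound of GRHL3, the GRHL2 region 96.0 kb from its start had a fold of 8.62, and an MLL3 region of fold 9.48 lay 3.7 kb from its summit without overlapping a GRHL2 region.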

How the data were processed

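GRHL2 and MLL3 ChIP-seq regions of KYSE510 cells were taken as 2 deposited narrowPeak lists, 1 library each. Per the submitters' processing notes, the tools included BWA, Picard, MACS2 and deepTools, with coordinates in hg19. The calling threshold is not given in the sources used here, nor is any tool version. The fold enrichment (a ratio), the −log10 p, the −log10 q and the score are the authors' deposited values; the score was not used, and the others rank regions within a list only. Read depth is unknown.

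Only assembled chromosomes were used (152864 of 153209 and 12150 of 12196 lines). Gene bounds in hg19 came with the choice of genes, rounded to kb. Regions counted as shared at an overlap of at least 1 bp. A −log10 q of at least 2 marked significant regions. No test was run, since there is 1 library per antibody. The exact intervals treat the regions of a window as independent and are descriptive. Overlap code was checked on artificial regions. The regions described were the 3 of highest fold per window and list, the one nearest the gene start, all MLL3 regions and the GRHL2 regions under them, with the others as counts or, where named in addition, chosen after their values were seen. Genes and lists were chosen with earlier results of these data known. Promoters and neighbouring genes came from RefSeq (GRCh38.p14). Protein comparison, other family and target genes, and motifs under regions were not analysed here. Python 3.11.15, pandas 2.3.3 and scipy 1.17.1 were used. Alternatives varied the flank (20, 60 and 100 kb, or none), the threshold, membership and overlap.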

Additional observations from a re-analysis of the deposited data

How the results depend on the processing

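The 28 alternative values for the 3 windows together stayed within 1.5 times the reported value in 19 cases, and 9 moved further. For single windows, 54 of 84 stayed and 30 moved. The 1 MLL3 region at GRHL1 became 0 with a flank of 20 kb and 3 with a flank of 60 or 100 kb, and the median GRHL2 fold at GRHL2, 2.94 as reported, was 13.1 when the −log10 q had to reach 2. The number of GRHL2 regions, 40 as reported, was 21 with a flank of 20 kb, 14 in the gene bodies alone, 11 at a fold of at least 5 and 17 when the −log10 q had to reach 2. The number of MLL3 regions, 6 as reported, was 2 in the gene bodies alone and 11 with a flank of 100 kb. It was also 11 with a flank of 60 kb, chosen after regions just outside the windows had been seen. The number of shared GRHL2 regions, 6 as reported, was 2 in the gene bodies alone and 4 when summits had to lie within 100 bp or the fold had to reach 5 in both lists. The median GRHL2 fold, 3.01 as reported, was 8.35 at a −log10 q of at least 2. With the gene bodies alone, the regions at the starts of GRHL1 and GRHL2 drop out because their summits lie 0.1 kb before the rounded bounds. Unknown depth and unequal thresholds limit both lists. No paired analysis was possible because there is a single library per antibody.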
